A study of Oryza sativa Japonica Group with 8 samples.

Results

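Mature seeds were compared with milk grains of rice, Oryza sativa of the japonica group, by stranded RNA sequencing of their polyadenylated transcripts. The comparison took every locus of at least 300 bp with at least 1 FPKM (fragments scaled by locus length and by mapped reads) in mature seeds or in milk grains. By this rule 29747 of the 41805 loci in the deposited table were compared, or 71.2%. A further 3681 loci were shorter than 300 bp, and 8377 were long enough but below 1 FPKM in both. The nearest higher values on either side of that limit were 1.00004 FPKM inside it and 0.999661 FPKM outside it. The mature seeds and the milk grains each gave 1 library, from plants of the same cultivated subspecies grown in a greenhouse, and the labels give no genotype, treatment or day of harvest. The other 6 libraries came from flower buds, flowers, and flag leaves and roots taken before and after flowering, the leaf and root samples being mixtures of stages. They serve here only to place the seed values. With 1 library a side, no difference below has a replicate check, no test was run, and "higher" and "lower" mean past a stated fold in these libraries.

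A cereal grain at the milk stage is filling. Its endosperm is a living tissue that synthesises starch and seed storage proteins, while the embryo is still forming. During maturation the grain loses water, cell metabolism slows, and transcripts for late embryogenesis abundant proteins and other desiccation-linked proteins accumulate. The dry seed keeps a store of messenger RNA that is used when it takes up water and germinates. The table names loci by identifiers of its own, and 0 of these were found among the 39387 genes of the reference table, which is on another assembly. No locus below is therefore given a gene name or a function, and the seed labels could not be checked against marker genes. Embryo, endosperm and maternal grain layers were not separated, so fewer cells of a type and less RNA per cell cannot be told apart.

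The number of reads behind each value is unknown. At the shortest loci the values of both libraries were whole multiples of a step, for each strand (within 0.03 of a whole number), and these steps put milk grains at 1.94 times (plus strand) and 1.95 times (minus strand) the depth of mature seeds. The FPKM sum over loci of at least 300 bp was nevertheless 1.41 times as high in mature seeds as in milk grains. In mature seeds 24111 loci of this length reached 1 FPKM and 7323 were listed at 0, against 27025 and 4605 in milk grains. The lowest percentile of non-zero values at loci from 300 bp to under 500 bp lay at 0.265 FPKM in mature seeds and 0.162 FPKM in milk grains. At 4000 bp or more it lay at 0.0519 FPKM in mature seeds and 0.0598 FPKM in milk grains, so low values were coarser in mature seeds at the shorter loci. Of the 6 other libraries, the one labelled roots sampled after flowering had a Spearman correlation of 0.97 to leaves after flowering, but of 0.68 to roots before flowering (across 38124 loci, as a description). This library, called the later root-labelled library below, was not used to choose organ sets. The shares of changed loci placed with its help, the broad set and the set below 1 FPKM elsewhere are also given without it. The classes by level elsewhere, and the shares of the FPKM sum in loci above the other organs, are given with it only.

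Many loci stood past a 4-fold limit between mature seeds and milk grains. Of the compared loci, 3002 (10.1%) stood at least 4-fold higher in mature seeds, whereas 4894 (16.5%) stood at least 4-fold lower, on the scale of FPKM + 1. Together these made up 26.5% of loci. Of the higher loci 435 were listed at 0 in milk grains, and of the lower loci 891 at 0 in mature seeds. At least 16-fold apart were 420 higher and 997 lower loci, while 12178 loci (40.9%) lay under 2-fold apart. The median log2 ratio was -0.18, and the middle 50% of loci spanned -1.43 to 1.00.

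The stage pairs of the other organs, which share no library with the seed pair, were narrower. Flowers against flower buds gave 1559 of 29590 loci at least 4-fold apart (5.27%), and leaves after against before flowering gave 1824 of 26682 (6.84%). The interquartile range of the log2 ratios was 2.43 in the seed pair, 0.78 in the flower pair and 1.11 in the leaf pair. Mature seeds were the shallowest library, and the part of depth in this spread was not tested. At loci whose mean over the 6 other libraries was at least 10 FPKM, the range in the seed pair was 2.24. The flower and leaf pairs were not computed at such loci. That limit is not set on mature seeds, so the value does not address depth.

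**Figure D1:**
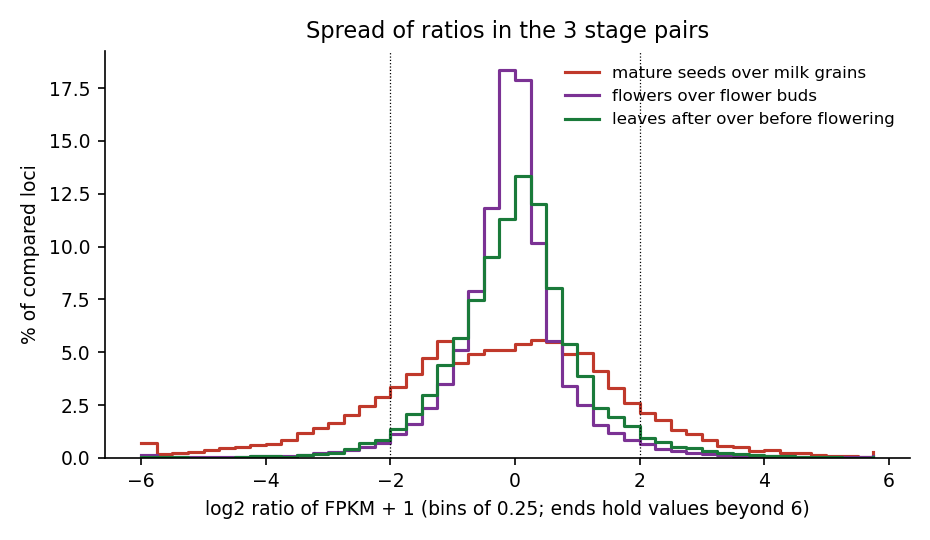
Share of compared loci (y axis, %) by log2 ratio of FPKM + 1 (x axis, bins of 0.25) for mature seeds over milk grains, flowers over flower buds and leaves after over before flowering, 1 library each. The seed pair is the broadest, with 26.5% of loci beyond the dotted 4-fold lines, against 5.27% and 6.84%.

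The balance of higher and lower loci followed the scaling of the libraries. On the deposited scale 38.02% of changed loci were higher. The share was 24.5% when mature seeds were rescaled to the FPKM sum of milk grains over loci of at least 300 bp, which moved the median log2 ratio by -0.45 and gave 1926 higher and 5925 lower loci. With both libraries brought to equal sums over all loci (pseudocount and filter kept at 1) it was 19.3%, with 860 higher and 3596 lower. This scaled both libraries down, and only 23439 loci passed the filter. Scaling and the stricter filter and pseudocount cannot be told apart in that value. Counted as departures from the all-locus median instead, 3529 loci (11.9%) stood at least 4-fold higher and 4267 (14.3%) lower, and 45.3% of changed loci were higher. Set medians are therefore given below also relative to the all-locus median.

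**Figure D2:**
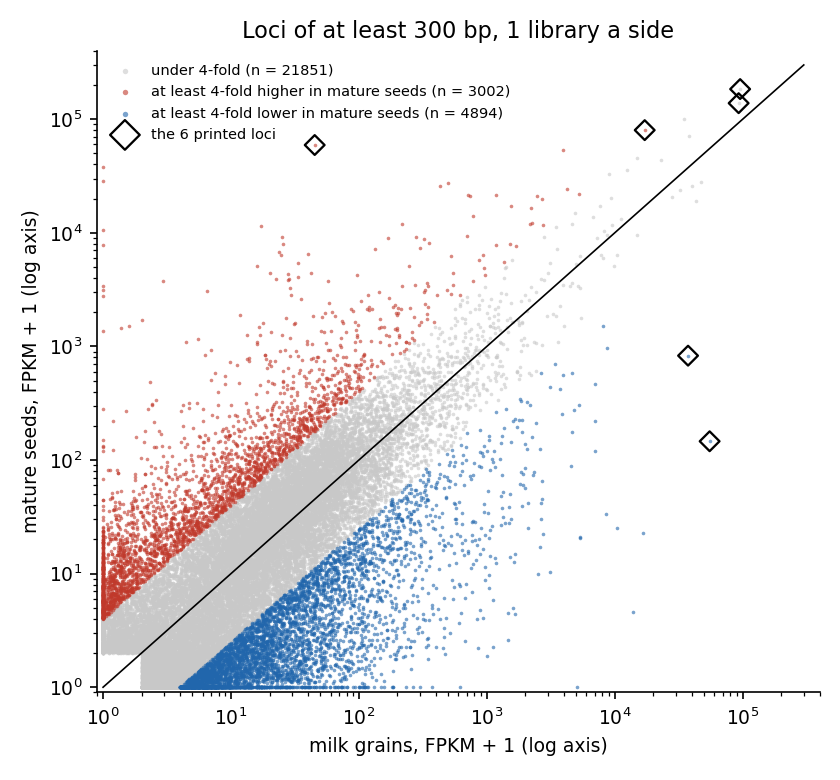
FPKM + 1 in mature seeds (y axis) against milk grains (x axis), both on log axes, for the 29747 compared loci, with the 3002 higher and 4894 lower loci coloured and the diagonal marking equal values. Open diamonds mark the 6 loci printed in the text, of which a pair lies near the diagonal at the top right.

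Loci above the other organs by a 4-fold rule held most of the FPKM sum in mature seeds, but not in milk grains. Loci at least 4-fold above each of the 6 other libraries numbered 2179 in mature seeds and held 60.3% of the FPKM sum there (loci of at least 300 bp). In milk grains 1233 such loci held 38.7% of the sum. The loci were chosen on the values summed, so part of each share follows from the rule. The FPKM sum was 1.41 times as high in mature seeds as in milk grains, and the shares were not recomputed on equal sums. Common to both were 486 loci, chosen on both values compared, with a median log2 ratio of 0.71 against -0.18 for all compared loci. Mature seeds were past the 4-fold limit upwards at 132 of these and downwards at 61, and 174 lay under 2-fold apart. Of all compared loci, 10.1% were higher, 16.5% lower and 40.9% under 2-fold apart.

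A pair of loci led both libraries. M_XLOC_021295 (chromosome 3, 31729099 to 31730225, minus strand, 1127 bp, MSU Release 7) stood at 183916 FPKM in mature seeds and 95428 FPKM in milk grains. Its rank was 1 among loci of at least 300 bp in both. P_XLOC_032761 (chromosome 7, 5741849 to 5742542, plus strand, 694 bp) stood at 138241 FPKM in mature seeds and 92906 FPKM in milk grains, rank 2 in both. Their log2 ratios were 0.95 and 0.57, the first 2 loci by their lower seed value among 11572 loci under 2-fold apart. Outside seeds M_XLOC_021295 stood at 2.19 FPKM in flower buds, 1.48 in flowers, 140 in pre-flowering leaves, 119 in post-flowering leaves, 8.11 in pre-flowering roots and 5.61 in the later root-labelled library. P_XLOC_032761 stood at 82.2 FPKM in pre-flowering leaves, 73.6 in post-flowering leaves and 1.64 in pre-flowering roots, and was listed at 0 in the other 3. Leaves came closest to the seed libraries for both loci, and remained far below them.

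Other abundant loci changed. M_XLOC_033446 (chromosome 7, 6258913 to 6259695, minus strand, 783 bp) stood at 80043 FPKM in mature seeds and 17132 FPKM in milk grains, a log2 ratio of 2.22. With mature seeds rescaled to the sum of milk grains its ratio was 1.73, under the 4-fold limit. Elsewhere it stood at 41.2 FPKM in pre-flowering leaves, 24.98 in post-flowering leaves, 3.11 in pre-flowering roots and 0.117 in flowers, and was listed at 0 in the remaining 2. P_XLOC_015399 (chromosome 2, 22622379 to 22623188, plus strand, 810 bp) stood at 59197 FPKM in mature seeds and 44.1 FPKM in milk grains, a log2 ratio of 10.36. It took 1.76% of the FPKM sum in mature seeds and 0.00185% in milk grains. The other libraries held 1.32 FPKM of it in flower buds, 1.99 in flowers, 17.7 in pre-flowering leaves, 12.05 in post-flowering leaves and 6.32 in pre-flowering roots, and the later root-labelled library was listed at 0. Its milk-grain level was thus nearer to the leaf levels than to that of mature seeds. These had the highest mature-seed values among 993 loci that were 500 bp or longer, above 0 in mature seeds and milk grains, 4-fold or more higher in mature seeds, and 4-fold above every other library.

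The matching rule for lower loci left 432 candidates. P_XLOC_035899 (chromosome 8, 5208385 to 5209569, plus strand, 1185 bp) stood at 145 FPKM in mature seeds and 55116 FPKM in milk grains, a log2 ratio of -8.56. Its rank was 2177 in mature seeds and 3 in milk grains. It was also present in flowers at 618 FPKM, in flower buds at 80.9, in pre-flowering leaves at 29.6, in post-flowering leaves at 32.4, in pre-flowering roots at 11.6 and in the later root-labelled library at 0.0895. M_XLOC_020837 (chromosome 3, 27134164 to 27138727, minus strand, 4564 bp) stood at 827 FPKM in mature seeds and 37378 FPKM in milk grains, a log2 ratio of -5.50. This locus was not confined to grains. It stood at 3315 FPKM in flower buds, 3107 in flowers, 7380 in pre-flowering leaves, 67.5 in post-flowering leaves, 4460 in pre-flowering roots and 1374 in the later root-labelled library. Its mature-seed level lay within that range.

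**Figure D3:**
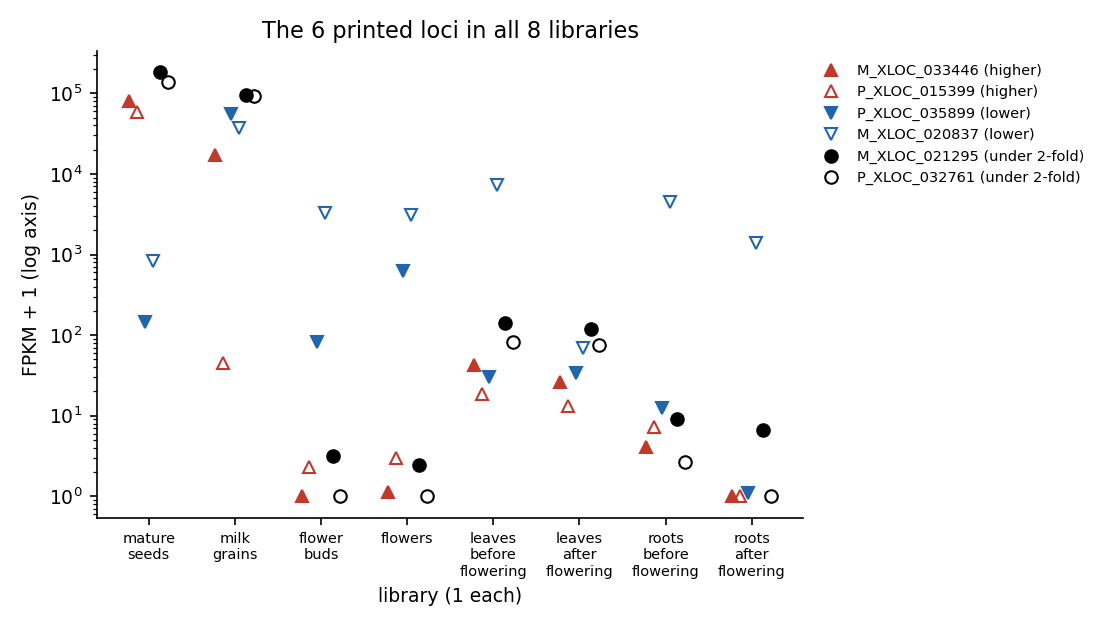
FPKM + 1 (log axis) of the 6 printed loci in each of the 8 libraries, with mature seeds and milk grains at the left. P_XLOC_015399 is the locus that stands at 59197 FPKM in mature seeds but at 44.1 FPKM in milk grains, and M_XLOC_020837 is the locus above 1000 FPKM in 5 of the other 6 libraries.

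The ranking at the top was partly exchanged. The 10 most abundant loci of each library shared 4, the 100 most abundant shared 45, and the 1000 most abundant shared 492. Of the top 100 of mature seeds, 59 exceeded milk grains at least 4-fold. Of the top 100 of milk grains, 38 were at least 4-fold lower in mature seeds. These lists were ranked on the values compared, so the counts describe the lists and support nothing further. The top 100 loci held 53.8% of the FPKM sum in mature seeds and 43.9% in milk grains.

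The other 6 libraries showed where the changed loci moved to. Of the 3002 higher loci, 2534 (84.4%) had a mature-seed value above all 6 other libraries, against 32.8% of all compared loci, while the milk-grain value of 1947 (64.9%) lay within their range, close to the 61.9% of all compared loci. At least 4-fold above every other library in mature seeds were 1493 of them (49.7%), against 7.33% of all compared loci. Of the 4894 lower loci, 2518 (51.5%) had a mature-seed value below all 6 other libraries, against 22.4% of all compared loci. In 789 of them (16.1%) mature seeds stood at least 4-fold below every other library, against 3.24% of all compared loci.

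Lower loci that stood above the other organs in milk grains were a smaller group. Of the lower loci, 656 (13.4%) stood at least 4-fold above every other library in milk grains, against 4.14% of all compared loci. This rule does not mean absence elsewhere, as M_XLOC_020837 above shows. The milk-grain value of 2783 (56.9%) lay within the range of the others, against 61.9% of all. With the library labelled roots sampled after flowering left out, 84.7% of the higher loci lay above all others and 52.6% of the lower loci below all others in mature seeds. The counts at least 4-fold above or below every other library were then 1541 of the higher loci above in mature seeds, and, of the lower loci, 825 below in mature seeds and 662 above in milk grains. The calls use the mature-seed and milk-grain values, so part of these excesses follows from the call itself. This holds for higher loci above and lower loci below the others in mature seeds, and for lower loci above them in milk grains. Both seed libraries were also set against each other library as a whole. Mature seeds correlated at 0.59 to 0.66 with the 6 others and milk grains at 0.66 to 0.80 (Spearman, across 38124 loci, as a description). Milk grains were closest to flowers, at 0.80. Mature seeds were closest to milk grains, at 0.76, and next to flowers, at 0.66.

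Sets of loci chosen from the other libraries alone were then followed. A set locus stood at 10 FPKM or more and at least 4-fold above the other organs. Neither the seed libraries nor the one labelled roots sampled after flowering were used to choose it. For comparison, 16.5% of all compared loci were lower and 10.1% higher. Loci that peaked in open flowers were the most often lower in mature seeds among these sets: of 143 compared, 71 were lower (49.7%), 14 were higher (9.79%) and 58 were neither. Their median was 1.92 FPKM in mature seeds and 13.5 FPKM in milk grains, and their median log2 ratio was -1.89, or -1.71 relative to all loci. The relative median was -0.68 without the filter at 1 FPKM, which 143 of the set's 197 members had passed, and ran from -2.96 to -0.51 over the settings tried. Loci that peaked in flower buds had a median of -0.95 over 171 loci, with 48 lower (28.1%) and 21 higher (12.3%). Relative to all loci that median was -0.78, but 0.21 without the filter at 1 FPKM, which 171 of the set's 333 members had passed.

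Inflorescence loci, high in both flower buds and flowers, numbered 909, of which 703 passed the filter at 1 FPKM. A high enough value in either seed library lets a locus pass, so the shares hold for passing members only. Among the 703, 284 were lower (40.4%, against 16.5% of all compared loci) and 80 higher (11.4%, against 10.1%). Their relative median was -1.19, but -0.27 without the filter, and ran from -2.35 to -0.27. Leaf loci had 338 of 411 members compared, with 89 lower (26.3%) and 22 higher (6.51%). Their relative median was -0.80, but -0.52 without the filter, and ran from -1.24 to -0.23. The median leaf locus stood at 2.69 FPKM in mature seeds and 10.05 FPKM in milk grains. Root loci, of which 1319 of 2080 were compared, lay near the all-locus values. Among these 1319, 240 were lower (18.2%) and 190 higher (14.4%), with a median log2 ratio of -0.30. That median was -0.13 relative to all loci, but 0.092 on the plus strand alone and 0.039 without the filter at 1 FPKM.

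Loci expressed evenly across organs were least often past the 4-fold limit among these sets. The broad set held 6996 loci at 10 FPKM or more in all 6 other libraries, with the highest value under 4-fold above the lowest. Of these, 369 were higher (5.27%, against 10.1% of all compared loci), 467 were lower (6.68%, against 16.5%) and 6160 were neither. Their median was 51.5 FPKM in mature seeds and 42.3 FPKM in milk grains, a median log2 ratio of 0.21, or 0.39 above the all-locus median. With the library labelled roots sampled after flowering left out, the set held 7242 loci and its median was 0.21.

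Loci below 1 FPKM in all 6 other libraries were the set most often higher. Of 2478, 695 were higher in mature seeds (28.0%, against 10.1% of all compared loci) and 395 lower (15.9%, against 16.5%). Their median log2 ratio was 0.85. Their levels were low, with medians of 2.32 FPKM in mature seeds and 1.28 FPKM in milk grains. Every locus in the table reaches at least 1.00015 FPKM in some library, so these loci were listed only because a seed library reached that level. The share of higher loci was above that of all compared loci at each length, but an excess of higher over lower loci was clear at short loci. From 300 bp to under 500 bp 277 of 611 were higher (45.3%), whereas at 4000 bp or more 37 of 231 were higher (16.02%) and 54 lower (23.4%), where 7.18% of all compared loci of that length were higher. Over loci of at least 1000 bp the set median was that of all loci, with a difference of -0.00026. The part of the coarser low values of mature seeds at short loci in this was not tested. With the library labelled roots sampled after flowering left out, the set held 2573 loci, of which 718 were higher (27.9%) and 399 lower (15.5%).

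**Figure D4:**
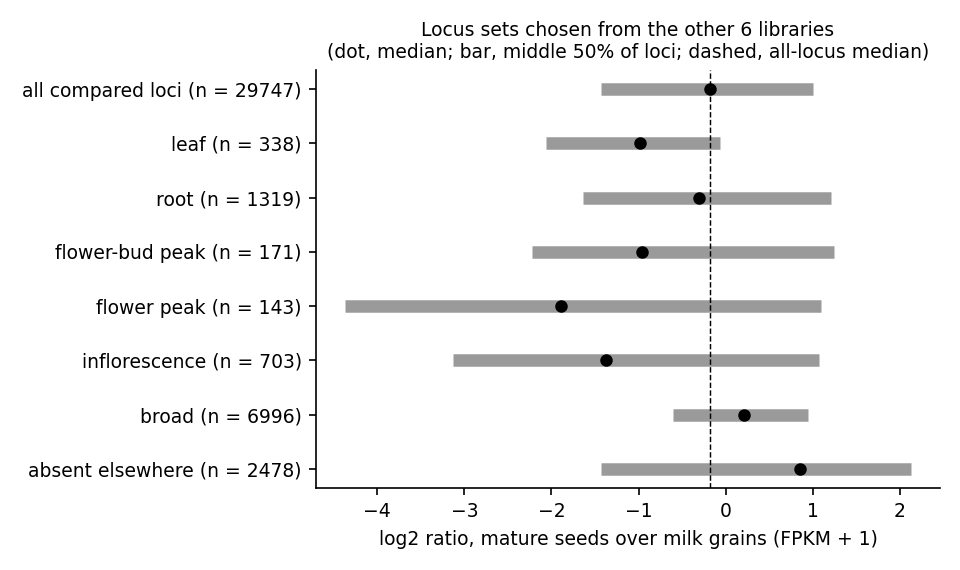
Median (dot) and middle 50% (bar) of the log2 ratio of FPKM + 1, mature seeds over milk grains, for all compared loci and for 7 sets chosen from the other libraries. The flower-peak and inflorescence medians lie at -1.89 and -1.37, left of the dashed all-locus median, and the broad and absent-elsewhere medians at 0.21 and 0.85, right of it.

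The level in the other organs also sorted the loci. Of 201 loci with a mean of 1000 FPKM or more over the 6 other libraries, 82 were lower in mature seeds (40.8%) and 25 higher (12.4%). Their median was 84.1 FPKM in mature seeds and 838 FPKM in milk grains, a median log2 ratio of -1.35. From 100 to 1000 FPKM, 624 of 2779 loci were lower (22.5%), and from 10 to 100 FPKM 2150 of 13332 were lower (16.1%). Higher loci were most frequent where the other organs were nearly silent, at 29.2% of 1475 loci with a mean below 0.1 FPKM. Lower loci made up 18.6% of that class, also above the all-locus share of 16.5%. Loci this low elsewhere are in the table only because a seed library reached its lowest listed level.

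Locus length went with the direction of change, and not in a straight line. Loci from 300 bp to under 500 bp were higher in 24.5% and lower in 15.02% of 2364 cases, with a median log2 ratio of 0.41. Loci from 1000 bp to under 2000 bp were higher in 9.84% and lower in 24.7% of 4379 cases, with a median of -0.78. At 4000 bp or more the shares were 7.18% and 12.4% of 10846 loci, with a median of 0.023. Relative to all loci these medians were 0.58, -0.60 and 0.20. In the flower pair and the leaf pair the same length classes lay within -0.13 and 0.037 of the all-locus median. The length is that of the genomic span, introns included, because the table gives no transcript length.

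Length and set were not independent. Within the broad set the median log2 ratio was -0.56 from 300 bp to under 500 bp (61 loci), -0.29 from 1000 bp to under 2000 bp (409 loci) and 0.30 at 4000 bp or more (3975 loci). The excess of higher loci among the shortest was thus not seen in the broad set, in which 6 of 61 were higher and 17 lower. Among inflorescence loci the share of lower loci was 23.5% from 500 bp to under 1000 bp and 45.8% at 4000 bp or more.

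**Figure D5:**
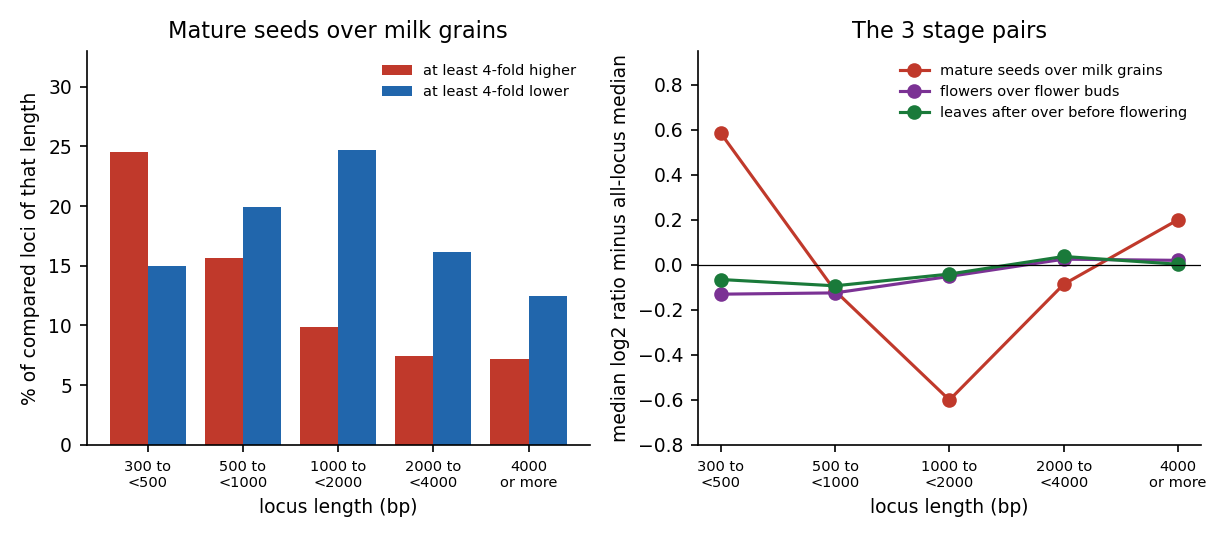
Left, share of compared loci (y axis, %) at least 4-fold higher or lower in mature seeds than in milk grains, by locus length in bp. Right, median log2 ratio minus the all-locus median in the same length classes for the 3 stage pairs, in which the seed pair runs from 0.58 through -0.60 to 0.20 and the other pairs stay near 0.

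Changed loci lay beside others that changed the same way more often than the share of such loci in all. The next compared locus along the chromosome was also higher for 545 of 2999 higher loci (18.2%; Wilson 95% interval 16.8% to 19.6%, counting error only), against 10.1% of all loci. It was also lower for 1001 of 4893 lower loci (20.5%; 19.4% to 21.6%), against 16.5%. Adjacent loci can be pieces of 1 transcript, which these data do not resolve.

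A run of strongly lower loci lay on chromosome 10. Between 9941278 and 9992760, a span of 51.5 kb, 11 loci were at least 4-fold lower, of 20 compared in their window of 200 kb. Of these, 10 lay on the minus strand. Their milk-grain values ran from 13.4 to 1112 FPKM with a median of 72.3 FPKM, and their mature-seed values ran from 0 to 119 FPKM with a median of 0.211 FPKM. Log2 ratios ran from -8.95 to -2.09. The locus with the highest milk-grain value, 1112 FPKM, had 1.25 FPKM in mature seeds. In 10 of the 11 milk grains stood at least 4-fold above every other library, 6 stayed below 1 FPKM in all 6 others, and the highest value in any of these was 10.6 FPKM. In each of the 6 other libraries the median of the 11 was 0 FPKM. The run was picked for its count of lower loci, so high milk-grain values follow in part from the choice. Loci below 1 FPKM in all 6 others are in the table only because a seed library reached its lowest listed level. Of the 11, 4 were listed at 0 in mature seeds, which can be a failed estimate.

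Other regions were mixed. On chromosome 1, between 6221412 and 6395667, 13 of 21 compared loci were lower (61.9%), with medians of 0.206 FPKM in mature seeds and 11.6 FPKM in milk grains. Of these 13, 4 stood at least 4-fold above every other library in milk grains, and the group had a median of 9.20 FPKM in flower buds. On chromosome 4, between 22800575 and 22996854, 13 of 37 were lower, with medians of 1.19 FPKM in mature seeds and 39.1 FPKM in milk grains.

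Higher loci also lay in dense runs, and the regions named next were picked for their counts or shares. On chromosome 11, between 15219837 and 15343857, 8 of 15 compared loci were higher (53.3%), with medians of 996 FPKM in mature seeds and 7.30 FPKM in milk grains. All 8 stood at least 4-fold above every other library in mature seeds. On chromosome 6, 9 of the 41 compared loci in a window of 200 kb were higher (22.0%), and they lay between 2445525 and 2473406. Of these 9, 2 stood at least 4-fold above every other library in mature seeds. Here as elsewhere the number compared is that of the whole window. On chromosome 3, between 33023853 and 33191174, 10 of 35 were higher (28.6%), with medians of 12.2 FPKM in mature seeds and 0.556 FPKM in milk grains. Windows with at least 5 higher loci numbered 123 and those with at least 5 lower loci 313, of 1858 windows with a compared locus. Since windows were picked for their counts, the values in them are descriptions.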

How the data were processed

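Strand-specific, single-end RNA sequencing of polyadenylated RNA was done on 8 libraries, 1 per group. The deposited values are FPKM, per the name of the deposited table. Per the submitters' processing notes, the authors' tools included TopHat, Cufflinks and Cuffdiff, for which no version or setting was at hand. Positions are on MSU Release 7, per the file headers. From these values log2((mature seeds + 1)/(milk grains + 1)) was computed with Python 3.11.15, numpy 2.4.6 and pandas 2.3.3 for loci of at least 300 bp and 1 FPKM in either library. Loci past a 4-fold limit were counted. No test was possible with 1 library a side. Read totals are unknown, so no interval is given for a single value. Printed loci are, among loci of at least 500 bp above 0 in both libraries, the 2 highest in mature seeds among higher loci and the 2 highest in milk grains among lower loci, each 4-fold above the 6 other libraries, and the 2 with the highest lower value among loci under 2-fold apart. Windows were 200 kb by locus midpoint. The sets, rules and alternatives were chosen with earlier results of these data known. No sequence is printed, since no genome of the files' build was used here. Alternatives were pseudocounts of 0.1 and 10, other filters, fold limits, lengths, strands and scalings.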

Additional observations from a re-analysis of the deposited data

How the results depend on the processing

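With 1 library a side no result has an error between replicates, and depth limits low values most in mature seeds. No paired analysis was possible because each group had 1 library and no test was run. Shifts of the median, spread and shares over compared loci were called larger than counting error over loci (95%), a narrow standard. Counts are listed only where they moved by a wider factor. Smaller moves were left out, such as 3596 lower with equal sums over all loci and 3731 higher with no length minimum. Set medians are listed where they changed sign, and printed loci where they changed sign or crossed the 4-fold limit. The counts higher and lower were 3002 and 4894. With a pseudocount of 0.1, 7639 were lower, and with 10 they were 1000 and 1354. At 2-fold they were 7447 and 10122, and at 16-fold 420 and 997. On the plus strand they were 1401 and 2358 of 14719 loci, and on the minus strand 1601 and 2536 of 15028. Higher loci numbered 860 with equal sums over all loci (pseudocount and filter kept at 1). With equal sums over loci of at least 300 bp they numbered 1926, and at 1000 bp or more 1835 of 23623. At a mean of at least 10 FPKM over the 6 other libraries, 1130 were higher and 2856 lower, of 16312 loci. That setting was chosen after seeing the data. Counts on a single strand, at 1000 bp or more and at 10 FPKM elsewhere are of fewer loci, so they are not like the other counts.

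Higher loci were 38.02% of changed loci, and 36.4% and 42.5% with pseudocounts of 0.1 and 10, 42.4% and 29.6% at 2-fold and 16-fold, 19.3% and 24.5% with equal sums over all and over loci of at least 300 bp, 45.3% centred on the median, 32.6% at 1000 bp or more, 39.9% with no length minimum, and 28.3% at 10 FPKM elsewhere. The median log2 ratio of -0.18 was -0.079 with a pseudocount of 10, -0.024 with a filter at 5 FPKM, -0.66 and -0.62 with equal sums over all and over loci of at least 300 bp, 0 by construction when centred, -0.15 on the minus strand, -0.088 for loci above 0 in both, and -0.15 at 10 FPKM elsewhere. The interquartile range of 2.43 was 3.23 and 1.02 with pseudocounts of 0.1 and 10, 2.65 with a filter at 5 FPKM, 1.99 with none, 1.80 and 2.26 with equal sums over all and over loci of at least 300 bp, 2.26 at 1000 bp or more, 2.53 with no length minimum, 2.34 and 2.51 on the plus and minus strands, 2.25 above 0 in both, and 2.24 at 10 FPKM elsewhere.

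Changed loci followed by a locus changed the same way were 19.6%, and 28.8% and 7.01% with pseudocounts of 0.1 and 10, 22.7% with a filter at 5 FPKM, 17.4% with none, 36.7% and 7.49% at 2-fold and 16-fold, 17.0% and 21.8% with equal sums over all and over loci of at least 300 bp, 15.9% at 1000 bp or more, 22.7% with no length minimum, 18.0% on the plus strand, 16.8% above 0 in both, and 17.6% at 10 FPKM elsewhere. Overlapping pairs changed the same way numbered 135, and 310 and 7 with pseudocounts of 0.1 and 10, 578 and 8 at 2-fold and 16-fold, 44 with equal sums over all loci, 58 at 1000 bp or more, 87 above 0 in both, and 30 at 10 FPKM elsewhere. The number of loci called also changes with the setting, and at 2-fold 7447 and 10122 of 29747 loci were past the limit. The neighbour shares and pair counts move with that number, so they do not show stronger or weaker grouping between settings. Of the 7 sets, 5 had a median below that of all loci, and 3 without a filter, where root loci stood at 0.039 and flower-bud peak loci at 0.21 above it. Root loci stood at 0.092 on the plus strand, and loci absent elsewhere at -0.00026 at 1000 bp or more. Leaf, inflorescence and flower-peak medians stayed below, and the broad median above, that of all loci under each of 13 settings that gave a value. Of the printed loci, P_XLOC_032761 turned to -0.12 and M_XLOC_033446 fell under the 4-fold limit, at 1.53, with equal sums over all loci. The cause of these shifts was not tested.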

Other observations

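Overlapping loci on opposite strands made up 3055 pairs of compared loci. In 52 pairs both members were higher in mature seeds past the 4-fold limit, in 83 both were lower, and in 80 they went opposite ways. In 1214 pairs only a single member was past the limit, and in 1626 neither was. Over all compared loci 10.1% were higher and 16.5% lower, so some pairs share a call without any link between strands. The pair counts were not set against pairs of unrelated loci and are descriptions only. The kit keeps strand, but read assignment between overlapping loci was not tested.

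The split was alike across the genome. The share of higher loci ran from 8.83% on chromosome 12 to 11.2% on chromosome 5, and that of lower loci from 14.8% on chromosome 12 to 18.3% on chromosome 10. On the minus strand 10.7% were higher and 16.9% lower, and on the plus strand 9.52% and 16.02%.

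Some abundant loci were listed at exactly 0 in a single seed library. At 100 FPKM or more in mature seeds but at 0 in milk grains were 13 loci, the highest on chromosome 1 (32076732 to 32078743, plus strand) at 38067 FPKM. In mature seeds 20 loci were at 0 that reached 100 FPKM or more in milk grains, the highest on chromosome 9 (5929 to 9404, plus strand) at 5069 FPKM. That locus also held 287 to 1013 FPKM in the 6 other libraries. Of 9457 loci at 10 FPKM or more in all 6 other libraries, 18 in mature seeds against 0 in milk grains were listed at 0 FPKM, and 154 against 1 were below 1 FPKM. An exact 0 in these values can be a failed estimate, so no fold is given for these loci. Loci at 0 in a single seed library were kept in the counts, lists and shares of the FPKM sum above. The locus at 38067 FPKM was among the 10 most abundant of mature seeds. With loci above 0 in both libraries only, 2567 were higher and 4003 lower.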
